A study of Mus musculus with 9 samples.

Results

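The 7 mammalian sirtuins (Sirt1 to Sirt7) and 3 enzymes that make their cosubstrate NAD (Nampt, Nmnat1 and Nmnat3) were followed in quadriceps muscle of mice with volumetric muscle loss, the surgical removal of a piece of the muscle. The 10 genes were chosen by symbol, as the rows whose identifiers carry these names in the GENCODE M21 annotation, out of 55536 genes in the count files, and all 10 passed the filter on low counts that left 16039 genes for testing. The set was put together with results of this same genotype comparison already known, above all those of Sirt1, so the fold changes and adjusted p-values of the 10 genes describe these libraries and are no independent support. No second set of libraries was at hand to repeat them in. The files hold 5 libraries labelled Il17ra-/-, a deletion of a receptor subunit for interleukin-17 cytokines, and 4 libraries labelled wild type (WT). All are C57BL/6 mice given as 6 weeks of age. The labels disagree on what else the 9 libraries share: one field gives saline and a harvest 1 week after the operation, another gives PCL and 6 weeks. The design text speaks of animals in triplicate, which differs from the 5 and 4 libraries, and no label ties a library to an animal, a litter or a day, so the p-values measure the spread between these libraries.

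Sirtuins are enzymes that remove acetyl and other acyl groups from proteins, or transfer ADP-ribose, and use up NAD as they do so. In skeletal muscle, as elsewhere, most NAD is rebuilt from nicotinamide by a salvage route: Nampt makes nicotinamide mononucleotide, the rate-limiting step, and the Nmnat enzymes turn that into NAD. Sirt1, Sirt6 and Sirt7 are mainly nuclear, Sirt2 mainly cytosolic, and Sirt3, Sirt4 and Sirt5 mitochondrial. Transcript levels of these genes say nothing directly about NAD or enzyme activity, which were not measured.

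Total counts per library ran from 31294089 to 46435401, and 3 counts were worth 0.0638 to 0.0984 CPM (counts scaled to library size), far below every value of the 10 genes. Il17ra itself stood at 208 ± 43.2 CPM (SD, n = 5) in the libraries labelled Il17ra-/- and at 96.8 ± 19.7 CPM (SD, n = 4) in those labelled WT, a log2 difference of 1.11 (SE 0.17, adjusted p = 0.00208). That goes against a loss of the whole transcript, although the gene total cannot check an allele that removes some exons, and the sources used here do not describe the allele. The groups are therefore called by their labels throughout. On the first principal components of all tested genes, WT replicate 2 stood apart on component 1 at 139, with the others between −30.7 and 0.26. Il17ra-/- replicate 1 stood apart on component 2 at 89.1, with the others between −33.1 and 16.0. Where leaving out one of these libraries changed a call, or moved the log2 fold change of one of the 10 genes by over 1.5 times, that value is given beside the result. Markers of other cell types also differed between the groups. Summed muscle fibre markers ran from 3144 to 4168 CPM in libraries labelled Il17ra-/- and from 1062 to 2726 CPM in those labelled WT, with 4 of 9 genes called higher. Summed mural cell markers ran from 1564 to 2216 CPM in libraries labelled Il17ra-/- and from 916 to 1212 CPM in those labelled WT, with 4 of 5 called higher. Satellite cell markers, with 2 of 4 called higher, summed to between 115 and 150 CPM in libraries labelled Il17ra-/- and to between 64.2 and 93.2 CPM in those labelled WT. Fibro-adipogenic markers were the most abundant, with sums of 25378 to 31445 CPM in libraries labelled Il17ra-/- and 31576 to 33291 CPM in those labelled WT, and 1 of 6 (Pi16) called lower. Of the rest, Pdgfra (0.23) and Col1a1 (0.02) were higher and Dcn (−0.12), Dpt (−0.39) and Ly6a (−0.35) lower on the log2 scale, none called. Macrophage markers summed to 9.60 to 17.1 CPM in libraries labelled Il17ra-/- and to 19.2 to 37.0 CPM in those labelled WT, with 1 of 6 called lower. That was Cd68, at 2.58 ± 1.01 CPM in libraries labelled Il17ra-/- and 17.9 ± 5.20 CPM in those labelled WT, and it carried the difference: Lyz2 was at −0.15 on the log2 scale and the other 4 had positive values, none called. Of the adipocyte markers, which summed to 27.6 to 109 CPM in libraries labelled Il17ra-/- and 25.1 to 64.4 CPM in those labelled WT, 1 of 5 was called higher, Adipoq, at 5.05 ± 2.80 CPM in libraries labelled Il17ra-/- and 1.36 ± 0.768 CPM in those labelled WT. Neutrophil markers reached at most 0.259 CPM in libraries labelled Il17ra-/- and 0.631 CPM in those labelled WT, with Csf3r, Retnlg and Mmp8 at 0 in all 9 libraries. Leukocyte markers summed to at most 2.12 CPM in libraries labelled Il17ra-/- and 1.70 CPM in those labelled WT, with 0 called. Endothelial markers summed to 26.2 to 61.6 CPM in libraries labelled Il17ra-/- and 29.7 to 87.8 CPM in those labelled WT, with 0 called. The values below thus come from RNA in which fibro-adipogenic markers far outweighed those of the other listed cell types. The part of cell composition in them was not tested, and in bulk RNA fewer cells of a type and less RNA per cell cannot be told apart.

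Of the 10 genes, Sirt1 was lower in the libraries labelled Il17ra-/- than in those labelled WT and was the only one called at an adjusted p under 0.05 (edgeR's quasi-likelihood test, Benjamini-Hochberg adjustment over all 16039 genes). Nampt came next in size among the lower genes and missed the threshold. The remaining 8 genes had adjusted p-values of 0.461 or above. Over all tested genes 3.06% were called, 1.35% as higher and 1.71% as lower in libraries labelled Il17ra-/-, and the 1 of 10 genes called here is read against that only as a description, since the genes were picked with this contrast known.

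Sirt1 (chr10:63319005-63381704, minus strand, GRCm38) encodes the most studied sirtuin, a nuclear deacetylase of histones, p53, FOXO factors and PGC-1α. It was measured at 19.6, 20.0, 23.8, 22.1 and 22.6 CPM in replicates 1 to 5 labelled Il17ra-/-. In replicates 1 to 4 labelled WT it was measured at 56.2, 46.3, 47.1 and 58.6 CPM. Every library labelled Il17ra-/- was below every library labelled WT, and the highest of the first group was well under the lowest of the second. Means were 21.6 ± 1.80 CPM (SD, n = 5) in the Il17ra-/- group and 52.0 ± 6.29 CPM (SD, n = 4) in the WT group. The log2 fold change was −1.27 (SE 0.12, 95% interval −1.52 to −1.01, adjusted p = 1.11e-04), so the transcript fell to 0.415 of its WT level. By p-value Sirt1 had rank 7 among the 16039 genes. Each library held between 769 and 2050 Sirt1 counts, so counting error is small beside the spread between libraries. Only 65 of its 5331 exon bases overlap another gene, the antisense transcript Gm16145. The libraries do not mark strand, and fragments over both genes are by default not counted.

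**Figure D1:**
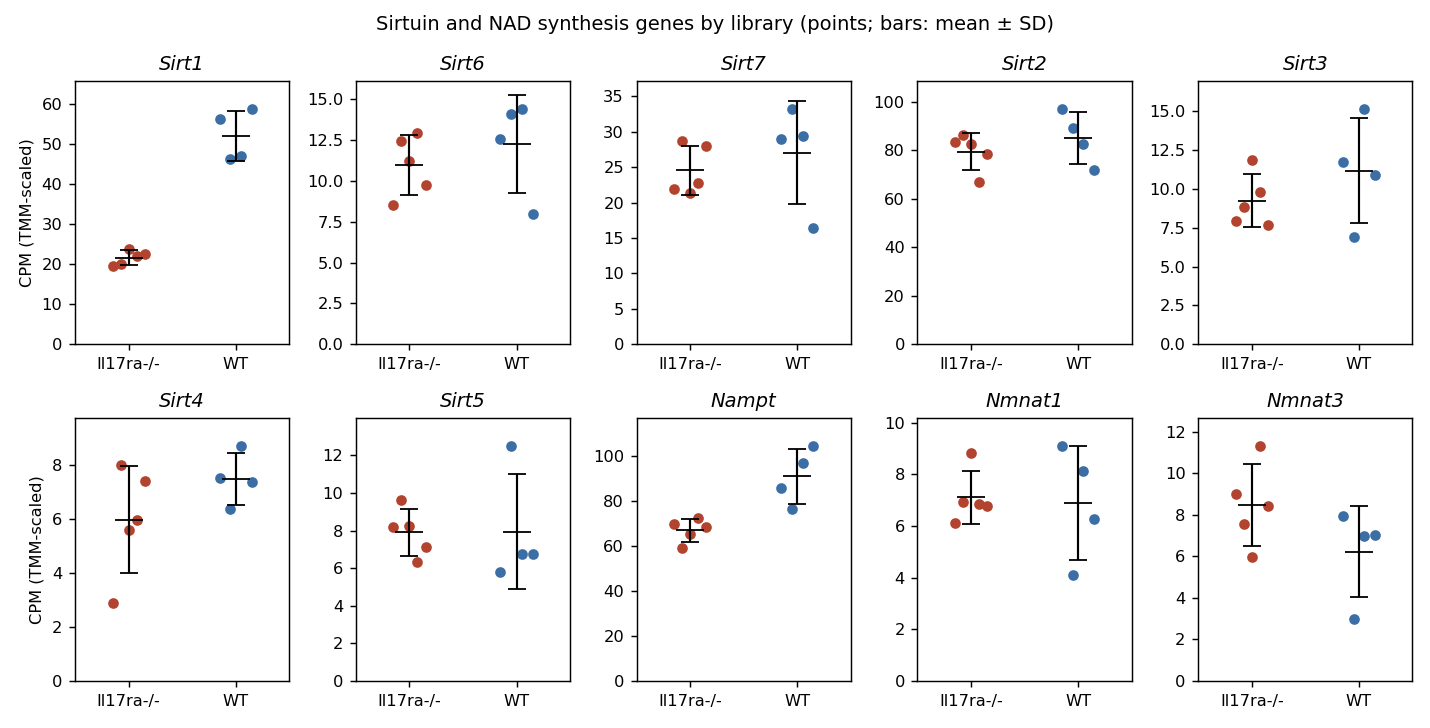
TMM-scaled CPM (y axis, from 0, a scale for each panel) of the 10 genes in each library, with the libraries labelled Il17ra-/- in red on the left and those labelled WT in blue on the right; points are libraries and bars the mean ± SD. The groups do not overlap for Sirt1 and Nampt, and overlap for the other 8 genes.

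The sequences before the RefSeq starts of Sirt1 and Nampt are shown because these are the genes with the largest and the next largest shortfall in libraries labelled Il17ra-/-. They come from the RefSeq promoter table for GRCm38.p6, which held 13 windows for the 10 genes, read 5′ to 3′ on the gene's strand. Both lie inside the gene bounds given here, because these come from GENCODE and include a transcript of each gene that begins farther upstream. Capitals mark 2 kinds of match, searched on both strands: CACGTG, the E-box bound by CLOCK:BMAL1 and by the MYC family, and GGGCGG or CCGCCC, the GC box bound by SP1. The Sirt1 stretch is chr10:63339051-63339285 on the minus strand, without its last 15 bases, which are annotated as exon. The Nampt stretch is chr12:32820085-32820334 on the plus strand.
Sirt1: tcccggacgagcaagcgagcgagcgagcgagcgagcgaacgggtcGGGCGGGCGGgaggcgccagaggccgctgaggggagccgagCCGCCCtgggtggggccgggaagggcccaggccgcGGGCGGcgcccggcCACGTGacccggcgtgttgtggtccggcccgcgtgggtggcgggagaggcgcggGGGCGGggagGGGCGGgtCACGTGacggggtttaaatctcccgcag
Nampt: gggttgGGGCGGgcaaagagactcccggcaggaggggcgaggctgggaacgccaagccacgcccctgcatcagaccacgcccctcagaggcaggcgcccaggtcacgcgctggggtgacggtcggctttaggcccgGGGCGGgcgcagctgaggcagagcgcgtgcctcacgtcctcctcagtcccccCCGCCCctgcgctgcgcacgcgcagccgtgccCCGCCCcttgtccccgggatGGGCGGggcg
The window before Sirt1 held 2 E-boxes, whose first bases lie 115 and 43 bases before the RefSeq start, and 6 GC boxes, of which one pair overlaps. The window before Nampt held 5 GC boxes and no E-box in its 250 bases. None of the other 9 genes had a CACGTG in the 250 bases before its RefSeq starts, against 6.02% of all 32851 RefSeq windows of that length that had one. GC boxes were found for 9 of the 10 genes, against 32.7% of all windows. AGGTCA or TGACCT, the half-site of ROR and REV-ERB receptors, was found for Sirt5 and Nampt, against 14.0% of all windows. TTATGTAA or TTACATAA, the D-box of DBP and NFIL3, was found for 0 of the 10, against 0.819% of all windows. Genes are counted here by a match in any of their windows, while the shares of all windows count single windows. A gene with more than 1 window thus has more chances of a match. A match is a run of letters and not a bound site, and no binding was measured.

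The other nuclear sirtuins overlapped between the groups. Sirt6 (chr10:81621785-81627797, minus strand), a chromatin deacetylase that acts in DNA repair and glucose metabolism, was measured at 8.52, 12.4, 11.2, 13.0 and 9.77 CPM in libraries labelled Il17ra-/-, against 12.6, 14.1, 14.4 and 7.95 CPM in those labelled WT. The lowest value of all 9 libraries was WT replicate 4. Its log2 fold change was −0.16 (SE 0.20, 95% interval −0.59 to 0.27, adjusted p = 0.747), and −0.0818 without WT replicate 2 or −0.0778 without Il17ra-/- replicate 1. Leaving out each of the 9 libraries in turn, it ran from −0.31 to −0.0652. Sirt7 (chr11:120618372-120625240, minus strand), a sirtuin of the nucleolus that acts in ribosomal RNA transcription, was measured at 22.0, 28.6, 21.4, 22.7 and 28.0 CPM in libraries labelled Il17ra-/-, against 29.0, 33.2, 29.4 and 16.5 CPM in those labelled WT. As with Sirt6, WT replicate 4 held the lowest value, while the other 3 WT libraries lay above all 5 of the Il17ra-/- group. Its log2 value differed by −0.14 (SE 0.18, 95% interval −0.54 to 0.26, adjusted p = 0.762), or by −0.0218 without WT replicate 2. Over the fits that each left out 1 library, the difference ran from −0.31 to −0.0218. It shares 124 exon bases with its neighbour Mafg on the same strand, 2.41% of its length.

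Sirt2 (chr7:28766735-28788661, plus strand), the deacetylase of α-tubulin, was the most abundant sirtuin in both groups and had the narrowest interval among the sirtuins. It was measured at 83.3, 86.2, 82.7, 66.9 and 78.3 CPM in libraries labelled Il17ra-/-, against 97.0, 89.0, 82.5 and 71.8 CPM in those labelled WT. The ranges overlapped widely, and the log2 fold change was −0.10 (SE 0.12, adjusted p = 0.728), with a 95% interval of −0.35 to 0.15. That interval does not reach the change of Sirt1.

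The mitochondrial sirtuins were low and overlapped between the groups. Sirt3 (chr7:140863666-140882309, minus strand), the main deacetylase of mitochondrial proteins, was measured at 7.91, 8.81, 11.9, 9.81 and 7.69 CPM in libraries labelled Il17ra-/-, against 11.8, 6.89, 15.1 and 10.9 CPM in those labelled WT. WT libraries held both its highest and its lowest value, and the log2 fold change was −0.28 (SE 0.22, 95% interval −0.75 to 0.20, adjusted p = 0.581), or −0.45 without WT replicate 2. Its exons overlap those of Ric8a over 418 bases and of Psmd13 over 342 bases on the opposite strand, so its value is less certain than those of the others. Sirt4 (chr5:115478010-115484725, minus strand), known for acting on glutamate dehydrogenase and on lipoyl groups, was measured at 2.90, 7.98, 5.58, 5.94 and 7.41 CPM in libraries labelled Il17ra-/-, against 7.51, 6.36, 8.69 and 7.35 CPM in those labelled WT. The lowest value was that of Il17ra-/- replicate 1, and the log2 fold change was −0.33 (SE 0.26, 95% interval −0.89 to 0.24, adjusted p = 0.585). Without that library it was −0.15, in a range of −0.45 to −0.15 leaving out 1 library at a time. Sirt5 (chr13:43365496-43395203, plus strand), which removes succinyl and malonyl groups, was measured at 8.19, 9.62, 8.26, 6.32 and 7.15 CPM in libraries labelled Il17ra-/-, against 5.81, 12.5, 6.74 and 6.74 CPM in those labelled WT. WT replicate 2 alone set the top of its range. With that library the log2 fold change was −0.0051 (SE 0.24, 95% interval −0.52 to 0.51, adjusted p = 0.996), and without it 0.30. Without Il17ra-/- replicate 1 it was −0.0159.

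Nampt (chr12:32819545-32853349, plus strand) was measured at 69.7, 59.1, 65.4, 72.5 and 68.2 CPM in libraries labelled Il17ra-/-. In those labelled WT it was measured at 85.9, 76.4, 97.0 and 104 CPM. Every library labelled Il17ra-/- was again below every library labelled WT, with a small gap to WT replicate 2. Means were 67.0 ± 5.11 CPM (SD, n = 5) in the Il17ra-/- group and 90.9 ± 12.3 CPM (SD, n = 4) in the WT group, a ratio of 0.736. The log2 fold change was −0.44 (SE 0.11, 95% interval −0.68 to −0.20) with an adjusted p of 0.0522, so it was not called, and its rank by p was 506. Its side of the threshold changed with the setting: it was called without WT replicate 2 (log2 fold change −0.51, adjusted p = 0.00894), and with all libraries under upper quartile scaling (0.0394), a filter of 1 CPM in 4 libraries (0.0380) and DESeq2 (0.00869). Over 17 alternative settings the adjusted p ran from 0.00869 to 0.150. Sirt1 and Nampt are thus 2 of 10 genes whose groups did not overlap, beside 9.18% of all tested genes.

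Of the set, the enzymes that complete NAD, Nmnat1 and Nmnat3, were low in both groups. Nmnat1 (chr4:149467572-149485202, minus strand), the nuclear form, was measured at 6.13, 6.94, 8.84, 6.86 and 6.77 CPM in libraries labelled Il17ra-/-, against 9.09, 4.10, 8.11 and 6.28 CPM in those labelled WT. The WT libraries enclosed the others, and the log2 fold change was 0.04 (SE 0.24, 95% interval −0.47 to 0.55, adjusted p = 0.950). It was −0.14 without WT replicate 2 and 0.0927 without Il17ra-/- replicate 1. Nmnat3 (chr9:98287435-98420438, plus strand), described as the mitochondrial form, was measured at 9.01, 7.55, 5.97, 11.3 and 8.42 CPM in libraries labelled Il17ra-/-, against 7.92, 2.99, 6.96 and 7.0 CPM in those labelled WT. Its log2 fold change was 0.44 (SE 0.28, adjusted p = 0.461), but the 95% interval of −0.15 to 1.03 includes 0 and the groups overlapped. WT replicate 2 had the lowest value of both genes. Without it the log2 fold change of Nmnat3 was 0.21, in a range of 0.21 to 0.58 leaving out 1 library at a time.

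**Figure D2:**
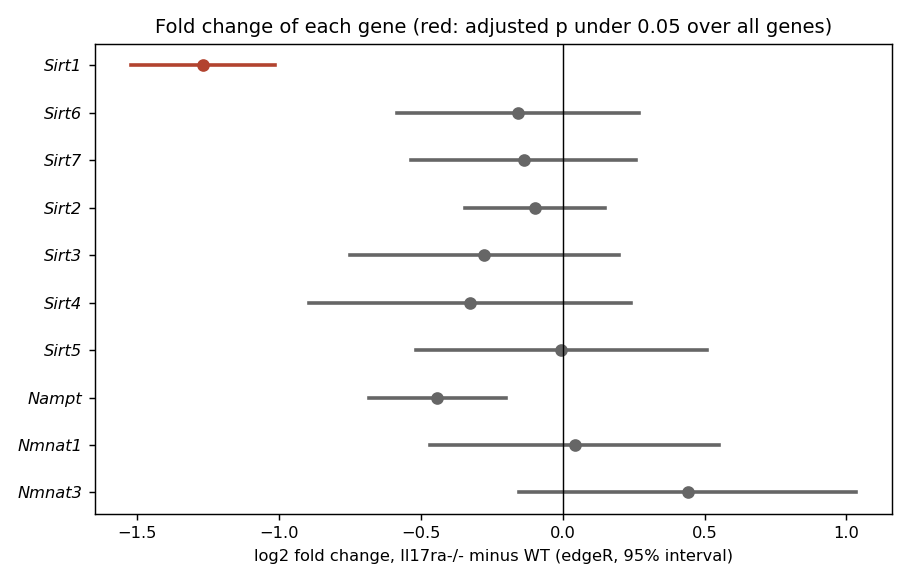
Log2 fold change of each of the 10 genes, libraries labelled Il17ra-/- minus those labelled WT (x axis), with points for the estimate from edgeR and lines for its 95% interval; red marks an adjusted p under 0.05 over all tested genes. Sirt1 at −1.27 lies left of the other 9 genes, whose estimates run from −0.44 for Nampt to 0.44 for Nmnat3.

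To compare levels between genes, CPM was divided by the exon length in kilobases. In libraries labelled Il17ra-/- the order of these per-length levels was Sirt2 (15.8 CPM per kilobase), Nampt (13.2), Sirt7 (4.76), Sirt1 (4.05), Sirt6 (3.94), Sirt4 (2.49), Nmnat1 (2.34), Nmnat3 (1.69), Sirt3 (1.54) and Sirt5 (1.30). Among neighbours in that order, the ranges over the 5 libraries were separate only between Nampt and Sirt7. In libraries labelled WT the order of per-length levels was Nampt (18.0 CPM per kilobase), Sirt2 (16.9), Sirt1 (9.76), Sirt7 (5.24), Sirt6 (4.40), Sirt4 (3.12), Nmnat1 (2.27), Sirt3 (1.87), Sirt5 (1.30) and Nmnat3 (1.24). There the ranges were separate between Sirt2 and Sirt1 and between Sirt1 and Sirt7. Sirt1 thus stood between the abundant and the scarce genes in WT libraries, and among the scarcer genes in those labelled Il17ra-/-.

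Ratios within a library do not depend on how the libraries were scaled. The ratio of Sirt1 to Sirt2 counts was 0.235, 0.232, 0.288, 0.330 and 0.288 in libraries labelled Il17ra-/-, against 0.579, 0.520, 0.571 and 0.817 in those labelled WT, with no overlap. Nampt counts were 3.11 ± 0.317 times the Sirt1 counts in libraries labelled Il17ra-/- (SD, n = 5) and 1.76 ± 0.228 times in those labelled WT (SD, n = 4). Sums of per-length levels do depend on that scaling. For the 7 sirtuins the sum was 33.9 ± 2.42 CPM per kilobase in libraries labelled Il17ra-/- and 42.6 ± 3.71 in those labelled WT. Sirt1 made up 12.0% ± 1.22 of that sum in libraries labelled Il17ra-/- and 23.2% ± 4.43 in those labelled WT. Without Sirt1 the sums were 29.8 ± 2.43 CPM per kilobase in libraries labelled Il17ra-/- and 32.8 ± 4.36 in those labelled WT. By replicate they were 27.8, 33.5, 30.3, 27.5 and 30.0 in libraries labelled Il17ra-/-. In those labelled WT they were 35.45, 35.0, 34.5 and 26.3. The ranges overlapped only through WT replicate 4.

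The 5 other lists of genes, those around the sirtuins, place the 10 genes among their pathway. They were written from general knowledge, but with earlier results of these data known. Their called shares are therefore read only as a description, as for the 10 genes. The 10 genes had a median log2 fold change of −0.15, with 8 negative and 2 positive, beside a median of −0.0027 over all tested genes, of which the middle 90% lay between −0.92 and 0.90. Of 21 other genes of NAD synthesis and handling, 14 were tested, with a median of −0.22. Of these 12 were negative and 1 was called (7.14%, beside 3.06% of all tested genes), Pnp. Pnp, purine nucleoside phosphorylase, also cleaves nicotinamide riboside. It fell to 75.7 ± 13.8 CPM in libraries labelled Il17ra-/-, against 203 ± 62.2 CPM in those labelled WT (log2 fold change −1.43, SE 0.18, adjusted p = 5.81e-04). Its close copy Pnp2 lies within the same stretch of chromosome 14. Fragments that map to both are by default not counted, so the Pnp counts may be incomplete.

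The list of 22 other enzymes that consume NAD, such as PARPs and CD38, was tested in full, with 12 positive and 10 negative values and a median of 0.10. Only Tiparp was called (4.55% of the list, beside 3.06% of all tested genes), a mono-ADP-ribosyltransferase that is a target of the aryl hydrocarbon receptor. It fell to 54.7 ± 8.41 CPM in libraries labelled Il17ra-/-, against 124 ± 28.5 CPM in those labelled WT (log2 fold change −1.18, SE 0.16, adjusted p = 0.000881). Among 21 tested of 22 listed regulators, partners and substrates of sirtuins the median was 0.21, with 17 positive, beside 7966 of 16039 over all tested genes. Of the 21, 2 were called higher (9.52%, beside 1.35% of all tested genes) and 0 lower by edgeR. Idh2, a mitochondrial NADP-dependent dehydrogenase that SIRT3 deacetylates, rose to 94.5 ± 5.89 CPM in libraries labelled Il17ra-/-, against 55.0 ± 3.36 CPM in those labelled WT (log2 fold change 0.78, SE 0.10, adjusted p = 0.000577). Hic1, a transcriptional repressor of the SIRT1 gene that also marks mesenchymal progenitors of muscle, rose to 159 ± 20.1 CPM in libraries labelled Il17ra-/-, against 107 ± 15.8 CPM in those labelled WT. Its log2 fold change was 0.57 (SE 0.13, adjusted p = 0.0295). The call for Hic1 was lost in 5 of 17 alternative settings, with adjusted p = 0.0759 without WT replicate 4, 0.0768, 0.0844 and 0.0797 without Il17ra-/- replicates 1, 2 and 3, and 0.0632 without WT replicate 2 and Il17ra-/- replicate 1 together, in a range of 0.00138 to 0.0844 over all 17.

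None of the 11 zinc-dependent deacetylases, the classical histone deacetylases that do not use NAD, was called by edgeR, beside 3.06% of all tested genes. An unadjusted p under 0.05 in that test was reached by 2 of the 11, beside 2630 of the 16039 tested genes. Hdac7 was called by DESeq2 (adjusted p = 0.0273) and by edgeR without WT replicate 2 (0.0456), in a range of 0.0273 to 0.247 over 17 settings. Their median was −0.10. Hdac7, a class IIa member, had the smallest p, with 245 ± 28.4 CPM in libraries labelled Il17ra-/- and 331 ± 53.6 CPM in those labelled WT (log2 fold change −0.43, SE 0.13, adjusted p = 0.0988). Clock genes were listed because Nampt is a known clock-controlled gene and SIRT1 binds CLOCK. Of 19 listed and 18 tested, 3 were called higher and 2 lower, 27.8% beside 3.06% of all tested genes. Nr1d1, the repressor REV-ERBα, rose to 106 ± 10.4 CPM in libraries labelled Il17ra-/-, against 15.5 ± 4.65 CPM in those labelled WT (log2 fold change 2.77, SE 0.18, adjusted p = 8.01e-06). Its relative Nr1d2 rose to 59.1 ± 14.0 CPM in libraries labelled Il17ra-/-, against 21.2 ± 5.47 CPM in those labelled WT (log2 fold change 1.48, adjusted p = 0.00125). The repressor Nfil3 fell to 61.6 ± 15.1 CPM in libraries labelled Il17ra-/-, against 178 ± 46.8 CPM in those labelled WT (log2 fold change −1.53, adjusted p = 5.81e-04). Per2, a component of the negative limb, fell to 9.81 ± 1.52 CPM in libraries labelled Il17ra-/-, against 28.3 ± 9.47 CPM in those labelled WT (log2 fold change −1.53, adjusted p = 0.00104). The remaining called gene, the output factor Dbp, rose to 12.0 ± 1.52 CPM in libraries labelled Il17ra-/-. In those labelled WT it was at 3.76 ± 2.28 CPM (log2 fold change 1.68, SE 0.33, adjusted p = 0.0135). The labels give no hour of collection, so the time of day and the genotype label cannot be told apart.

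**Figure D3:**
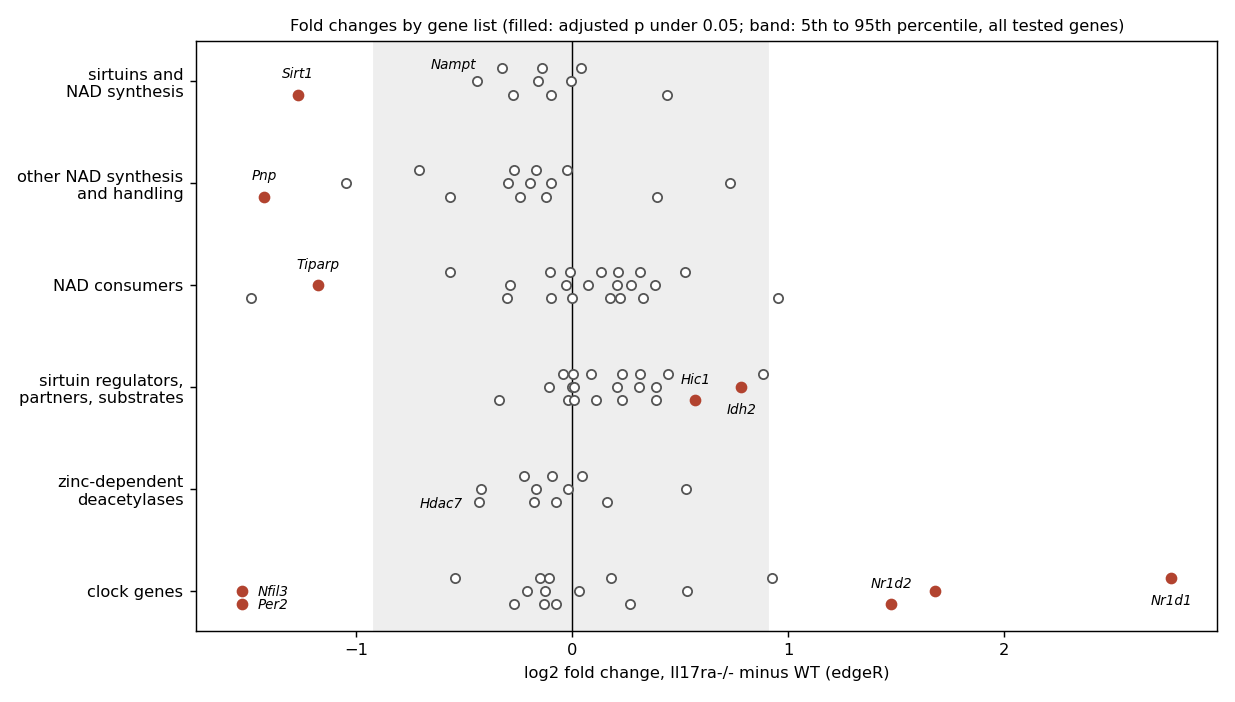
Log2 fold change, libraries labelled Il17ra-/- minus those labelled WT (x axis), of each tested gene in the sirtuin and NAD synthesis set and in the 5 lists around it (rows; the vertical offset only separates points). Filled points have an adjusted p under 0.05, and the grey band holds the 5th to 95th percentile of all tested genes. Filled points left of the band are Per2 and Nfil3 at −1.53, Pnp at −1.43, Sirt1 at −1.27 and Tiparp at −1.18, with the open point of Art4 at −1.48 among them, and Nr1d1 at 2.77 lies farthest right.

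The genes whose profile over the 9 libraries was nearest to that of Sirt1 were found by the root mean square difference of log2(CPM + 1), each gene centred on its own mean, among 10142 genes with a mean of at least 5 CPM. They were Wsb1 (0.170), a substrate-binding subunit of a ubiquitin ligase, Ppp1r10 (0.172), a nuclear regulator of protein phosphatase 1, and the mitochondrial ribosomal RNA mt-Rnr1 (0.177). Wsb1 averaged 126 ± 18.9 CPM in libraries labelled Il17ra-/- and 281 ± 34.1 CPM in those labelled WT. Ppp1r10 averaged 39.1 ± 4.47 CPM in libraries labelled Il17ra-/- and 96.6 ± 19.7 CPM in those labelled WT. For mt-Rnr1 the means were 199 ± 29.5 CPM in libraries labelled Il17ra-/- and 476 ± 55.6 CPM in those labelled WT. For Nampt the nearest genes were Tle3 (0.0817), a transcriptional corepressor, Pan3 (0.0909), a subunit of a poly(A) nuclease, and Eogt (0.107), a glycosyltransferase. Tle3 averaged 86.1 ± 6.80 CPM in libraries labelled Il17ra-/- and 109 ± 13.3 CPM in those labelled WT. Genes chosen by likeness share the group difference of Sirt1 or of Nampt by construction.

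**Figure D4:**
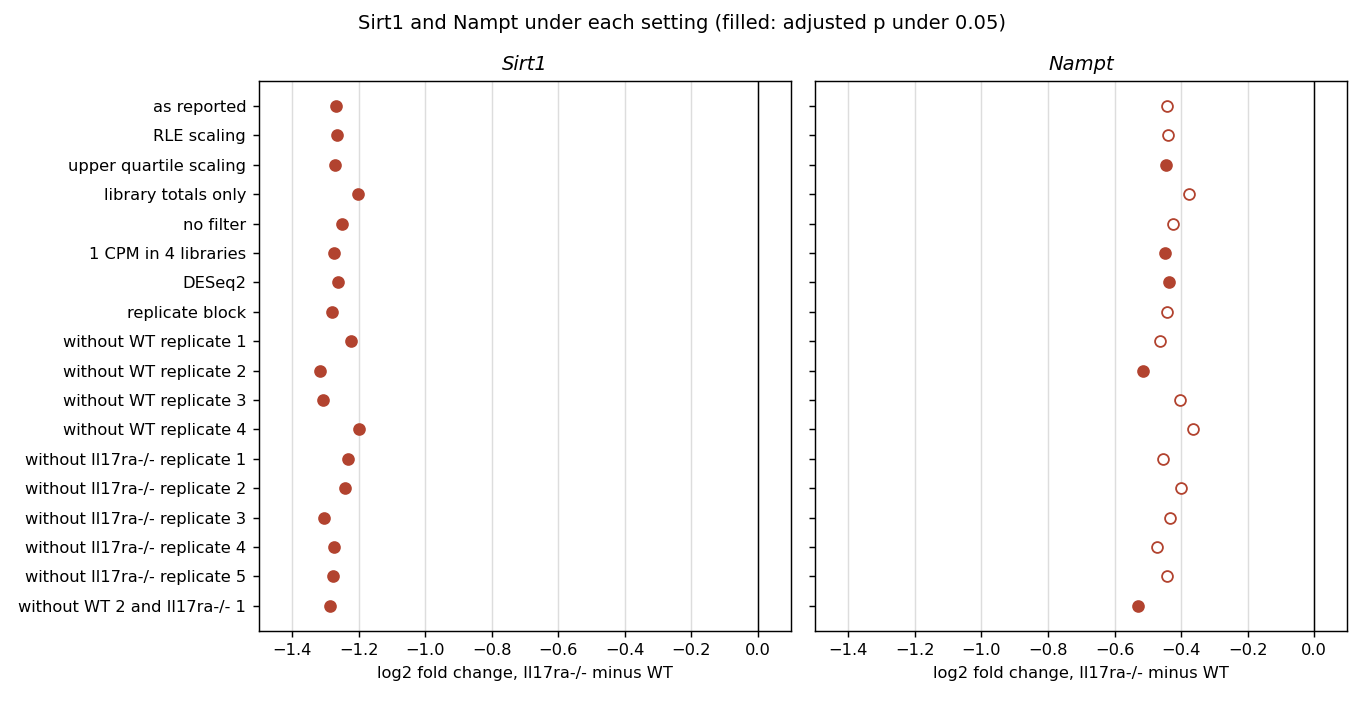
Log2 fold change of Sirt1 (left) and Nampt (right), libraries labelled Il17ra-/- minus those labelled WT (x axis), as reported and under each of 17 alternative settings (rows); filled points have an adjusted p under 0.05. Sirt1 stays between −1.32 and −1.20 and is filled in every row, while Nampt stays between −0.53 and −0.36 and is filled in 5 of the 17.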

How the data were processed

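Per the file headers, the authors ran featureCounts 1.6.0 in paired mode, ignoring strand, and deposited for every gene of GENCODE M21 (GRCm38) the raw count of fragments on its exons. Fragments over several places or genes are not counted by default. The submitters' processing notes name STAR as the aligner, without a version. Per the labels' protocols, RNA integrity numbers exceeded 8 and libraries came from the unstranded TruSeq RNA v2 chemistry. All 55536 identifiers matched M21.

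Counts were tested with edgeR 4.0.16 in R 4.3.3 (filterByExpr, TMM scaling, quasi-likelihood test, genotype label as the only term, 9 libraries, two-sided), with Benjamini-Hochberg adjustment over all 16039 genes and a threshold of 0.05. Dividing the size of a log2 fold change by the square root of F gave its SE. CPM uses TMM-scaled library sizes. The procedure was tested on simulated counts that gave every gene the same spread and held no outlying library, unlike these data. The outcome is not given here and is no support for the calls above. Alternatives were RLE, upper quartile and library-total scaling, no filter, at least 1 CPM in 4 libraries, DESeq2 1.42.0, a replicate block, and leaving out libraries.

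Members and gene lists were chosen with earlier results of these data known. The text names the 10 members, Il17ra, up to 4 called genes of each list (the one of smallest p where none was called), the 3 genes most like Sirt1 and Nampt, and markers. Other genes it names were chosen after their values were seen.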

Additional observations from a re-analysis of the deposited data

Results flagged for a closer look

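Single libraries lay far from the rest of their group by Dixon's criterion in 7 of 52 checks (26 genes in each group), where chance gives about 1 in 20. Among the sirtuins, Sirt5 was at 12.5 CPM in WT replicate 2, with the next WT library at 6.74 CPM. WT replicate 2, the library that stood apart on component 1, was also the highest of its group for Pnp (297 CPM, next 174 CPM) and for Nfil3 (248 CPM, next 156 CPM), and the lowest for Wsb1 (230 CPM, next 295 CPM). Il17ra-/- replicate 4 was the highest of its group for Il17ra (284 CPM, next 200 CPM) and for Pnp (99.9 CPM, next 73.1 CPM). WT replicate 1 was the highest of its group for mt-Rnr1 (559 CPM, next 457 CPM).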

How the results depend on the processing

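Sirt1 was called in all 17 alternatives, with log2 fold changes of −1.32 to −1.20 and adjusted p-values up to 0.00179. Nampt was negative in all 17 (−0.53 to −0.36, adjusted p 0.00869 to 0.150) and was called in 5, so that 2 of the 10 genes were called under upper quartile scaling (adjusted p = 0.0394), the filter of 1 CPM in 4 libraries (0.0380), DESeq2 (0.00869), without WT replicate 2 (0.00894) and without WT replicate 2 and Il17ra-/- replicate 1 together (0.0127). Leaving out 1 library at a time called 1 to 2 of the 10.

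Some genes near 0 changed sign. Sirt5 was at 0.0565 with library totals, 0.0177 with no filter and 0.29 without both libraries, and between −0.12 and 0.30 leaving out 1 library. Nmnat1 was at −0.0890 without both libraries and between −0.14 and 0.21 leaving out 1. Sirt7 was at 0.0144 without both libraries. Over all genes, DESeq2 called 1066 and leaving out 1 library 275 to 567 (275 without Il17ra-/- replicate 3 and 323 without Il17ra-/- replicate 1), against 491. The other NAD synthesis list had 3 called genes with no filter and 2 with DESeq2, against 1. The zinc-dependent deacetylases had 1 called with DESeq2 and 0 to 1 leaving out 1 library, and the sirtuin regulators 1 to 3 leaving out 1 and 1 without both libraries. Library totals gave 330 higher and 232 lower calls, against 217 higher and 274 lower. The causes of these shifts were not tested.

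Replicate numbers did not pair the samples: deviations of same-numbered libraries correlated at −0.0174, 0.00475, 0.0557 and 0.0357. With the replicate block, 363 genes were called, Sirt1 among them, and Sirt5 was at 0.0779. With 5 and 4 libraries, the SE of the 8 genes far from the threshold was 0.12 to 0.28 on the log2 scale, and differences inside their intervals could not be told from none.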

Other observations

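Of 9 listed genes on the route from tryptophan to NAD, 3 passed the filter on low counts. Qprt, which makes nicotinic acid mononucleotide from quinolinate, was well detected at 21.4 ± 1.99 CPM in libraries labelled Il17ra-/- and 26.3 ± 3.01 CPM in those labelled WT (log2 fold change −0.30, SE 0.13, adjusted p = 0.257 by edgeR). Tdo2 and Afmid reached at most 2.29 and 2.15 CPM in any library (adjusted p = 0.430 and 0.904). Kynu had no count in all 9, which allows at most 3 counts per library. Ido1, the interferon-induced enzyme of the first step, had 0 counts in all 5 libraries labelled Il17ra-/- and 31, 0, 1 and 159 counts in WT replicates 1 to 4, so 2 WT libraries held nearly all of it. Haao, a later enzyme, had 0, 12, 7, 0 and 0 counts in the libraries labelled Il17ra-/- and 24, 0, 0 and 38 in those labelled WT, again highest in WT replicates 1 and 4. Nnt, the transhydrogenase that couples NADH to NADPH, had between 0 and 42 counts in every library; C57BL/6J mice are known to carry a deletion in this gene, and the labels give only C57BL/6. Kynu, Ido1, Haao and Nnt did not pass the filter on low counts, so the reported test did not include them. The alternative with no filter included those with any count, and their values there are not given.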
